A study of Mus musculus with 14 samples.

Results

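The genes described here carry out the licensing of replication origins and the synthesis of DNA. They were a list of 45 mouse genes, and every probe set whose platform annotation gave only the symbol of a listed gene was taken. A probe set is a group of short array probes read as 1 value. In all, 42 of the 45 genes had such probe sets, 74 of the 22626 tested on the array, and a gene was represented by its brightest probe set. Gins2, Gins3 and Chaf1a had no probe set of their own and are not analysed here.

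The arrays measured RNA of bone marrow cells sorted for the surface antigen Sca1 and against the receptor cKit. The groups were 5 arrays from mice with a BPLER instigating tumour (Instigator), 5 from mice with a PC3 non-instigating tumour (Non-instigator) and 4 from mice with Matrigel alone, a basement membrane extract that served as the tumour-free implant (Matrigel). BPLER is a line of transformed human breast epithelial cells, PC3 is a human prostate cancer line, and an instigating tumour promotes the growth of other tumour cells elsewhere in the same host. The labels give no strain, age, sex, genotype or batch, and they do not say whether each array came from a separate animal, so the p-values measure the spread between arrays, which may be technical. The array titled Instigator 5 has a description that names the PC3 tumour, while its title and its source entry name the instigating tumour. It was kept in the Instigator group, and values with it moved to Non-instigator are given where a gene passes or loses an unadjusted p under 0.05.

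Before a cell copies its genome, the origin recognition complex, Cdc6 and Cdt1 load the ring-shaped MCM helicase onto origins, a step called licensing that geminin blocks once DNA synthesis has begun. Mcm10, Cdc45 and the GINS complex then turn the helicase on, and the polymerases follow with their primase, sliding clamp, clamp loader and single-strand binding protein. Many of these genes are transcribed shortly before and during S phase under E2F transcription factors, so in marrow they are used as a readout of proliferating precursors.

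The promoters of the genes were read for the letters of the E2F element, because that element is what many of them are known to share. RefSeq windows of build GRCm38.p6, which run from 250 bases before to 50 bases after the annotated start, were given for 37 of the 45 genes. The motifs TTTCCCGC, TTTCGCGC, TTTGCCGC and TTTGGCGC were searched on both strands, and their matches can overlap each other. A match was found for 13 of the 37 genes (35.1%), namely Orc1, Cdc6, Cdt1, Mcm3, Mcm5, Mcm6, Mcm7, Gins3, Pola1, Pold1, Pole2, Rfc3 and Lig1. The share was 2.26% over all 32851 windows of the table and 4.07% over the 9887 genes that are on the array and in the table. It was 36.6% of 41 other replication genes and 11.5% of 26 mitosis genes, both of them lists described below. The windows of the 3 genes with a match that also had an unadjusted p under 0.05 in Instigator against Matrigel are printed here, with that of Mcm5, in which a pair of matches on opposite strands overlap. Of the other genes at that level, Mcm2, Fen1 and Rrm1 had a window without a match, and no window was given for Pole. Capitals mark the matches. A match is a run of letters and does not show that a factor binds there.
Cdt1 (chr8:122567765-122568064, plus strand): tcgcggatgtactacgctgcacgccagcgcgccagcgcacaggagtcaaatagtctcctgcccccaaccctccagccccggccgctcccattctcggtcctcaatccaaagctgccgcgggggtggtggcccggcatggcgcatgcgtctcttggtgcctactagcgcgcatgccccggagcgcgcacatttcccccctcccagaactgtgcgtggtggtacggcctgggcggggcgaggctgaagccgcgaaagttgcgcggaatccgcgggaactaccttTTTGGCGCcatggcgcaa
Cdc6 (chr11:98907901-98908200, plus strand): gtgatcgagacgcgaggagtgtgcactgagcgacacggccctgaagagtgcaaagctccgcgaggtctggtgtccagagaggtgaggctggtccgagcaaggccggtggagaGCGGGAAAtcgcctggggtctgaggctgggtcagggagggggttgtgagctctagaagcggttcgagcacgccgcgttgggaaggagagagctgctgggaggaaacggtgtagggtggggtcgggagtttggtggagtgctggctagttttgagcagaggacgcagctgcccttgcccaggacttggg
Lig1 (chr7:13278576-13278875, plus strand): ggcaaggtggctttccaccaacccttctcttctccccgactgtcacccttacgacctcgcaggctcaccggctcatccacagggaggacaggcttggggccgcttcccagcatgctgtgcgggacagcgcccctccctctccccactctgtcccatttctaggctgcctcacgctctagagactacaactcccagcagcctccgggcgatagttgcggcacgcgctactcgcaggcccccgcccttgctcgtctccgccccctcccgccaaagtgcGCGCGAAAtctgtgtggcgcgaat
Mcm5 (chr8:75109259-75109558, plus strand): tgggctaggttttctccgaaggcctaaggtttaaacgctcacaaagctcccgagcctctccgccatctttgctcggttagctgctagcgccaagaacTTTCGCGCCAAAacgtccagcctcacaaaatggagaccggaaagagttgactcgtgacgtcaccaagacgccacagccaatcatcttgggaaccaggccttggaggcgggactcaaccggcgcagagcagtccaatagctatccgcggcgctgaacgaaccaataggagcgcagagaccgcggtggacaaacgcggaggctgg

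Instigator 4 and Matrigel 3 stood apart from the other arrays. The control probe sets for beta-actin gave a 5' minus 3' difference of -3.41 on Instigator 4, against -0.81 to -0.51 on the other 13 arrays, and those for Gapdh gave -4.03, against -1.16 to -0.73. Those for the transferrin receptor did not set it apart, with -2.58 on Instigator 4 and -2.71 to -1.98 on the other 13 arrays. Matrigel 3 had the highest median of all probe sets, 7.18 on the log2 scale, while the other arrays lay between 6.90 and 7.01. Differences were also computed without them. Without Instigator 4 alone, 5 of the 42 differences between Instigator and Matrigel changed sign, and without both arrays 8 did, with a largest shift of 0.40. The counts between Instigator and Non-instigator were 7 and 7, and between Non-instigator and Matrigel 0 and 11. The mean of 4 macrophage markers of 5 was 9.499 on Instigator 4, against 8.39 to 8.86 on the other 13 arrays. Of the sorting markers, Ly6a, which encodes Sca1, is not analysed here. The mean of 5 of 5 listed markers of Kit-positive progenitors, Kit among them, ran from 8.88 to 9.19 on Instigator arrays, from 8.71 to 9.08 on Non-instigator arrays and from 8.82 to 9.21 on Matrigel arrays.

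In marrow cells from Instigator mice, the replication genes with the largest differences from Matrigel mice lay higher: Pole by 0.71, Cdt1 by 0.68, Mcm2 by 0.56 and Cdc6 by 0.52 on the log2 scale, where 1 is a doubling. None passed the adjusted test. With limma and Benjamini-Hochberg adjustment over the 22626 probe sets, 0 probe sets of the array had an adjusted p under 0.05 in this comparison, while 2324 had an unadjusted p under 0.05. At that unadjusted level 7 of the 42 genes were higher in Instigator, beside 3.63% of all 12393 genes, and 0 were lower, beside 5.16% of all genes. Of the 42 genes, 28 had a difference above 0 and 14 below 0, beside 5690 and 6703 of all 12393 genes. The median difference of the 42 was 0.13, beside -0.02 over all genes. It was 0.06 without Matrigel 2, beside -0.03 over all genes, and 0.21 when arrays were centred on their medians, beside 0.06. With that centring 8 of the 42 genes were higher and 0 lower, beside 8.61% and 2.74% of all genes. The count of 7 was 4 without Instigator 4 (Pole, Cdt1, Fen1 and Rrm1), beside 3.09% of all genes higher. It was 4 without Instigator 1 and 3 without Matrigel 2, beside 3.28% and 3.22%. Without Instigator 4 and Matrigel 3 together it was 4 (Pole, Cdt1, Mcm2 and Chaf1b), beside 3.72%. It was 13 with array weights, which lower the influence of arrays that fit their group poorly, beside 5.39% of all genes higher with the same weights. With Instigator 5 moved it was 9, beside 4.79% of all genes, as Gins4 (0.43) and Pold1 (0.59) joined, and Mcm2, Cdc6 and Fen1 then differed by 0.66, 0.61 and 0.41.

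Of the 3 genes of the loading step and its inhibitor, 2 were among these 7. Cdt1, which brings the MCM ring to the origin, had log2 intensities of 10.45, 10.30, 10.70, 11.08 and 10.54 on Instigator arrays 1 to 5, of 10.58, 10.14, 10.27, 10.05 and 9.95 on Non-instigator arrays 1 to 5, and of 10.40, 9.71, 9.66 and 9.96 on Matrigel arrays 1 to 4. Instigator and Matrigel overlapped only through Matrigel 1, which lay above Instigator 2. The difference between Instigator and Matrigel was 0.68 (SE 0.18, limma adjusted p = 0.439), and it was 0.56 without Instigator 4. A second, dimmer probe set of Cdt1 differed by 0.51, with an unadjusted p under 0.05, and the remaining one by 0.09.

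Cdc6, the ATPase that works with Cdt1 at the origin, had log2 intensities of 9.05, 8.50, 9.03, 9.60 and 8.58 on Instigator arrays, of 9.05, 8.67, 8.47, 8.38 and 8.31 on Non-instigator arrays, and of 8.91, 8.08, 8.37 and 8.37 on Matrigel arrays. Every Instigator array lay above Matrigel 2, 3 and 4, and Matrigel 1 lay above Instigator 2 and 5. The difference between Instigator and Matrigel was 0.52 (SE 0.22, limma adjusted p = 0.453) and 0.36 without Instigator 4, where it no longer had an unadjusted p under 0.05. Gmnn, which encodes geminin, the inhibitor of Cdt1, averaged 10.10 ± 0.32 on Instigator arrays, 10.12 ± 0.34 on Non-instigator arrays and 10.16 ± 0.23 on Matrigel arrays (SD, n = 5, 5 and 4). Its difference between Instigator and Matrigel was -0.06, with a 95% interval of -0.46 to 0.34.

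The origin recognition complex, which marks the sites where the helicase is loaded, had small differences, most of them below 0. Of its 4 measured genes, 1 had a difference above 0 between Instigator and Matrigel and 3 below, with a median of -0.08. All 4 lay below 0 between Non-instigator and Matrigel, with a median of -0.17. Of all 12393 genes, 6703 and 7645 lay below 0 in these comparisons. None of the 4 had an unadjusted p under 0.05 at its brightest probe set in any comparison. Without Instigator 4 and Matrigel 3 together, Orc1, Orc2, Orc5 and Orc6 differed by 0.07, -0.02, 0.03 and -0.03 between Instigator and Matrigel. Between Non-instigator and Matrigel they then differed by -0.01, -0.13, 0.09 and -0.12. Orc2 had 9.33, 9.13, 9.20, 9.14 and 9.27 on Instigator arrays, 9.22, 9.36, 8.87, 9.04 and 9.07 on Non-instigator arrays, and 9.29, 9.26, 9.48 and 9.19 on Matrigel arrays. Non-instigator 3, 4 and 5 lay below every Matrigel array, and Non-instigator 1 and 2 lay among them. The difference between Non-instigator and Matrigel was -0.19 (SE 0.10, limma adjusted p = 0.986). A dimmer probe set of Orc2 was lower in Instigator than in Matrigel by 0.55 on the log2 scale (difference -0.55, unadjusted p under 0.05), against -0.09 at the brightest one. Without Instigator 4 the dimmer set differed by -0.43, and its unadjusted p was no longer under 0.05.

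The MCM helicase, the hexamer that unwinds DNA ahead of the fork, had all 6 of its genes above 0 in Instigator against Matrigel and in Instigator against Non-instigator, with medians of 0.13 and 0.18. Of all 12393 genes, 5690 and 7209 lay above 0 in these comparisons. Between Non-instigator and Matrigel, 2 of the 6 lay above 0 and 4 below. At the brightest probe set only Mcm2 had an unadjusted p under 0.05. Among the dimmer sets, 1 of Mcm3 differed by 0.28 between Instigator and Matrigel and another by 0.38 between Instigator and Non-instigator, both with an unadjusted p under 0.05, which neither had without Instigator 4. The values of Mcm2 were 9.79, 9.53, 9.76, 10.68 and 9.49 on Instigator arrays, 9.86, 9.23, 8.97, 9.001 and 9.15 on Non-instigator arrays, and 9.20, 9.11, 9.53 and 9.31 on Matrigel arrays. Instigator 4 stood well above every other array, and Non-instigator 1 lay above the 4 remaining Instigator arrays, while Non-instigator 2 to 5 lay below all of Instigator.

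The Mcm2 difference between Instigator and Non-instigator was 0.61 (SE 0.21, limma adjusted p = 0.813) and 0.40 without Instigator 4. Against Matrigel it was 0.56 higher (SE 0.23, limma adjusted p = 0.442) and 0.36 without Instigator 4, where its unadjusted p was no longer under 0.05. Its other probe set differed by 0.12 from Matrigel and by 0.15 from Non-instigator, and on Instigator 4 the 2 probe sets lay on opposite sides of the mean of the other Instigator arrays. The 5 other MCM genes differed between Instigator and Matrigel by 0.09 (Mcm3) to 0.13 (Mcm4, Mcm5, Mcm6 and Mcm7). Mcm4, among the brightest of the list, averaged 11.94 ± 0.12 on Instigator arrays, 11.80 ± 0.16 on Non-instigator arrays and 11.81 ± 0.26 on Matrigel arrays, and the 95% interval of its difference between Instigator and Matrigel was -0.13 to 0.39.

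Of the factors that start the loaded helicase, 0 of 4 measured genes had an unadjusted p under 0.05 in any comparison. All 4 lay above 0 in Instigator against Non-instigator, beside 7209 of all 12393 genes. Mcm10, which binds the helicase and the first polymerase, had 8.52, 8.13, 8.38, 9.58 and 8.09 on Instigator arrays, 8.69, 8.14, 8.14, 7.60 and 7.77 on Non-instigator arrays, and 8.16, 7.91, 8.51 and 8.11 on Matrigel arrays. Instigator 4 was the highest by far, and the 4 other Instigator arrays overlapped both of the other groups. The difference between Instigator and Non-instigator was 0.47 (SE 0.26, limma adjusted p = 0.813) and 0.21 without Instigator 4.

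Gins1, a subunit of the GINS complex, had 10.08, 9.54, 10.02, 10.12 and 9.66 on Instigator arrays, 10.09, 9.90, 9.41, 9.28 and 9.37 on Non-instigator arrays, and 9.88, 9.59, 10.36 and 9.95 on Matrigel arrays. Non-instigator 3, 4 and 5 lay below every Matrigel array. The difference between Non-instigator and Matrigel was -0.33 (SE 0.19, limma adjusted p = 0.986), and -0.20 without Instigator 4 and Matrigel 3. Between Instigator and Matrigel it was -0.06, and 0.08 without Matrigel 3, the highest array for this gene. Gins4, another GINS subunit, differed between Instigator and Matrigel by 0.37 (95% interval -0.02 to 0.76), which was 0.09 without Instigator 4 and Matrigel 3 together. Cdc45, which joins GINS and MCM in the active helicase, differed by 0.15, with a 95% interval of -0.20 to 0.49.

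**Figure D1:**
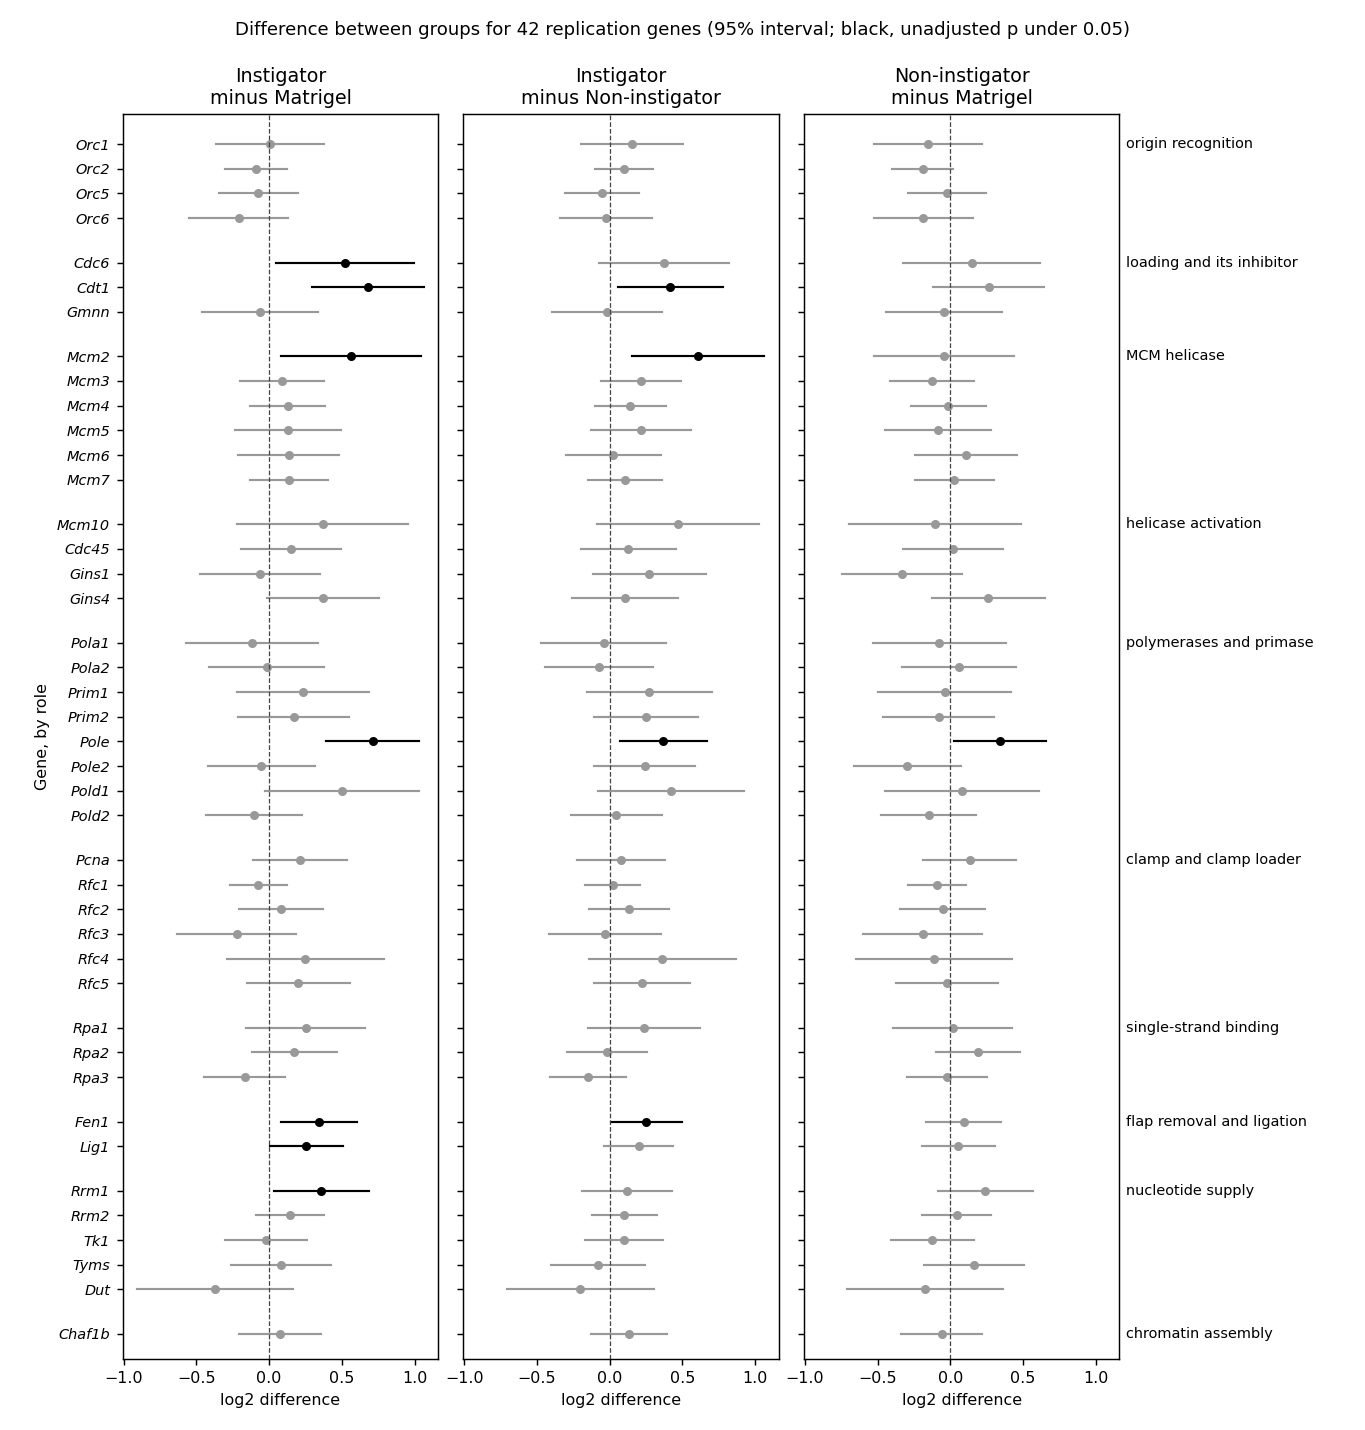
Log2 difference (horizontal axis) with its 95% confidence interval for each of 42 replication genes, in rows grouped by role, for Instigator minus Matrigel, Instigator minus Non-instigator and Non-instigator minus Matrigel. Black marks an unadjusted limma p under 0.05, which 7, 4 and 1 genes had, all of them above 0, and Pole is black in all 3 panels.

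Among the polymerases, Pole had the largest difference from Matrigel of the list. It encodes the catalytic subunit of polymerase epsilon, the enzyme that copies the leading strand. Its log2 intensities were 8.36, 8.20, 8.51, 8.89 and 8.45 on Instigator arrays, 8.48, 8.08, 8.18, 7.87 and 7.95 on Non-instigator arrays, and 8.05, 7.57, 7.70 and 7.75 on Matrigel arrays. All 5 Instigator arrays lay above all 4 Matrigel arrays. At the brightest probe sets, Pole was the only 1 of the 42 genes for which the groups did not overlap in that comparison. Beside it, 1.12% of all genes lay wholly higher in Instigator and 1.21% wholly lower.

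Pole was 0.71 higher in Instigator than in Matrigel (1.64-fold, SE 0.15, 95% interval 0.39 to 1.03, limma adjusted p = 0.439), and 0.59 higher without Instigator 4 and Matrigel 3. Against Non-instigator the difference was 0.37 (SE 0.14, limma adjusted p = 0.813) and 0.27 without Instigator 4, where its unadjusted p was no longer under 0.05. Non-instigator was 0.34 above Matrigel (SE 0.15, limma adjusted p = 0.986), with Matrigel 1 above Non-instigator 4 and 5. The unadjusted p of that difference was no longer under 0.05 when Non-instigator 1, 2 or 3 or Matrigel 2, 3 or 4 was left out. Non-instigator 1 lay above Instigator 1, 2 and 5, and the other Non-instigator arrays lay below all of Instigator.

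Pole2, which encodes an accessory subunit of the same enzyme, had 8.23, 8.03, 8.34, 8.47 and 7.99 on Instigator arrays, 8.46, 8.11, 7.89, 7.60 and 7.80 on Non-instigator arrays, and 8.10, 8.01, 8.68 and 8.28 on Matrigel arrays. Instigator and Matrigel overlapped throughout, with a difference of -0.05 (95% interval -0.42 to 0.31), while Non-instigator 3, 4 and 5 lay below all of Matrigel, for a difference of -0.30 between Non-instigator and Matrigel (SE 0.17, limma adjusted p = 0.986), which was -0.16 without Matrigel 3 and Instigator 4. Pold1, the catalytic subunit of polymerase delta, which copies the lagging strand, differed between Instigator and Matrigel by 0.50 (95% interval -0.03 to 1.03) and by 0.24 without Instigator 4. The other probe set of Pold1 differed by 0.10, and by -0.04 without Instigator 4. Pold2, the accessory subunit of polymerase delta, differed by -0.10. The subunits of polymerase alpha and its primase, which lay the first primers, differed by -0.12 (Pola1), -0.02 (Pola2), 0.23 (Prim1) and 0.17 (Prim2), and Prim1 by 0.03 without Instigator 4.

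**Figure D2:**
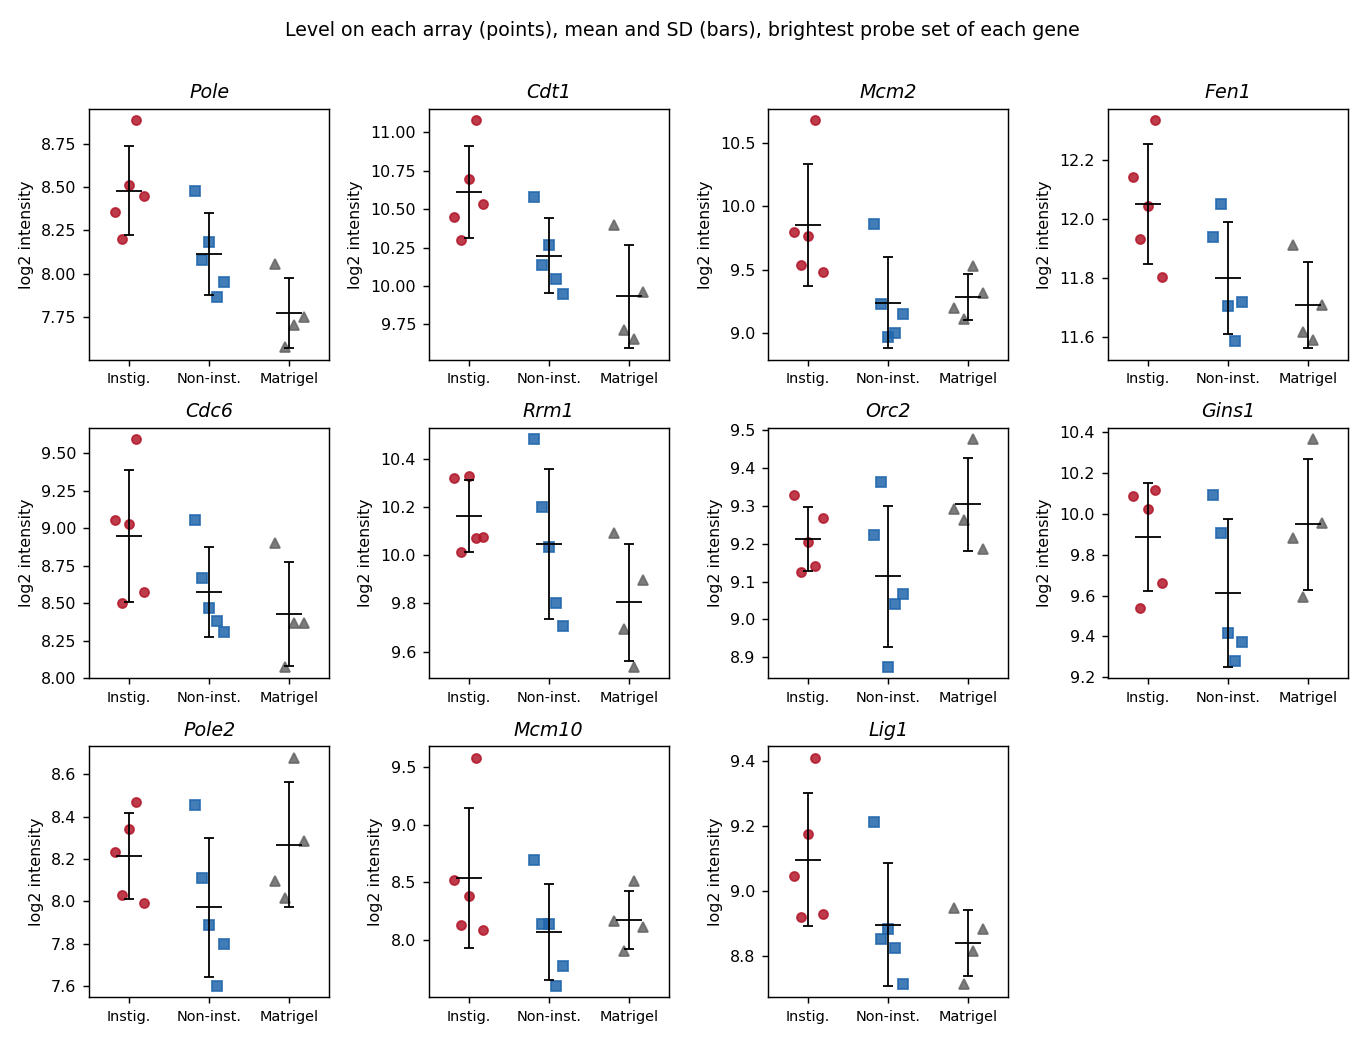
Log2 intensity (vertical axis, a different range in each panel) of 11 replication genes on each Instigator, Non-instigator and Matrigel array, with points for arrays in replicate order and bars for the mean and SD. For Pole all Instigator points lie above all Matrigel points, Instigator 4 is the high point of Mcm2 and Mcm10, and Non-instigator 1 is the highest or second highest of its group in each panel.

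The sliding clamp and its loader held 0 of 6 genes with an unadjusted p under 0.05 at the brightest probe set, with a median difference of 0.14 between Instigator and Matrigel. Pcna, the clamp that holds the polymerase on DNA, averaged 12.01 ± 0.16 on Instigator arrays, 11.93 ± 0.23 on Non-instigator arrays and 11.79 ± 0.33 on Matrigel arrays. Its difference between Instigator and Matrigel was 0.21, with a 95% interval of -0.11 to 0.53, and 0.02 without Instigator 4 and Matrigel 3. The loader subunits ranged from -0.22 (Rfc3) to 0.25 (Rfc4), and Rfc4 lay at -0.03 without Instigator 4, and Rfc3 at 0.07 without Instigator 4 and Matrigel 3. Rfc1, the large subunit of the loader, differed by -0.07 at its brightest probe set, while its dimmer ones differed by -0.60 and -0.25, both with an unadjusted p under 0.05. At both dimmer sets every Instigator array lay below every Matrigel array, at the second narrowly (7.8119 on Instigator 2, 7.812 on Matrigel 1). Without Instigator 4 the differences were -0.44 and -0.18, and the second no longer had an unadjusted p under 0.05. Of the single-strand binding protein, Rpa1, Rpa2 and Rpa3 differed between Instigator and Matrigel by 0.25, 0.17 and -0.17, none with an unadjusted p under 0.05, and Rpa1 by 0.04 without Instigator 4.

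Both genes of the enzymes that finish the lagging strand were among the 7 higher in Instigator than in Matrigel. Fen1, the nuclease that trims the RNA-primed flaps, had 12.14, 11.93, 12.04, 12.34 and 11.80 on Instigator arrays, 11.94, 12.05, 11.70, 11.59 and 11.72 on Non-instigator arrays, and 11.91, 11.62, 11.59 and 11.71 on Matrigel arrays. Instigator 1 to 4 lay above all of Matrigel, and Instigator 5 lay below Matrigel 1. The difference between Instigator and Matrigel was 0.34 (SE 0.12, limma adjusted p = 0.439) and 0.27 without Instigator 4, and 0.23 without Instigator 4 and Matrigel 3, where its unadjusted p was no longer under 0.05. Against Non-instigator it was 0.25 (SE 0.11, limma adjusted p = 0.813) and 0.18 without Instigator 4, with an unadjusted p no longer under 0.05. The other probe set of Fen1 differed by 0.24 from Matrigel and by 0.27 from Non-instigator, neither with an unadjusted p under 0.05.

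Lig1, the ligase that seals the nicks, had 9.05, 8.92, 9.18, 9.41 and 8.93 on Instigator arrays, 9.21, 8.85, 8.88, 8.83 and 8.71 on Non-instigator arrays, and 8.95, 8.72, 8.82 and 8.88 on Matrigel arrays. Matrigel 1 lay above Instigator 2 and 5, and the other Matrigel arrays lay below all of Instigator. The difference between Instigator and Matrigel was 0.26 (SE 0.12, limma adjusted p = 0.479) and 0.18 without Instigator 4, where its unadjusted p was no longer under 0.05. Against Non-instigator it was 0.20 (SE 0.11, limma adjusted p = 0.813). The brightest probe set of Fen1, like those of Mcm4, Pold1 and Rrm2, has a suffix that marks probes which can bind other transcripts, and those of Mcm2, Mcm3, Mcm7 and Rfc4 a suffix for probes shared between transcripts.

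Of the 5 genes that supply nucleotides, Rrm1 had an unadjusted p under 0.05 in Instigator against Matrigel. Rrm1, the large subunit of ribonucleotide reductase, had 10.32, 10.02, 10.33, 10.07 and 10.08 on Instigator arrays, 10.48, 10.20, 10.04, 9.80 and 9.71 on Non-instigator arrays, and 10.09, 9.69, 9.54 and 9.90 on Matrigel arrays. Matrigel 1 lay among the Instigator arrays, and Matrigel 2, 3 and 4 lay below them. The difference was 0.36 (SE 0.15, limma adjusted p = 0.458), 0.38 without Instigator 4, and 0.29 without Instigator 4 and Matrigel 3, where its unadjusted p was no longer under 0.05. The other probe set of Rrm1 differed by -0.51, the widest disagreement within a gene, and by -0.17 without Instigator 4.

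Rrm2, the small subunit of the same enzyme, differed between Instigator and Matrigel by 0.14, with a 95% interval of -0.09 to 0.38. Tk1, the thymidine kinase of the salvage route, differed by -0.02, Tyms, which makes thymidylate, by 0.08, and Dut, which removes dUTP, by -0.37 and by -0.10 without Instigator 4. Tyms was the 1 gene of the list below the median probe set of the array. Chaf1b, a subunit of the factor that places histones behind the fork, differed by 0.08, and by 0.25 without Instigator 4 and Matrigel 3, where its unadjusted p was under 0.05.

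Against Non-instigator, 4 of the 42 genes were higher in Instigator at an unadjusted p under 0.05 at the brightest probe set (Mcm2, Pole, Cdt1 and Fen1), beside 2.41% of all genes, and 0 were lower, beside 2.92%. Over the 74 probe sets, 6 were higher and 2 lower at that level, beside 2.24% and 3.36% of all probe sets. The 2 lower ones were dimmer sets of Rfc1 and Orc2, with differences of -0.50 and -0.47. Without Instigator 4 they differed by -0.34 and -0.35, and only that of Rfc1 kept an unadjusted p under 0.05. With limma, 0 probe sets of the array had an adjusted p under 0.05 in this comparison, while 1268 had an unadjusted p under 0.05. The Cdt1 difference was 0.42 (SE 0.17, limma adjusted p = 0.813) and 0.30 without Instigator 4, where its unadjusted p was no longer under 0.05. Of the 42 genes, 32 lay above 0, beside 7209 of all 12393 genes, with a median of 0.13, beside 0.03 over all genes. For 0 of the 42 did the groups not overlap, beside 0.71% of all genes wholly higher in Instigator and 0.436% wholly lower. The count of 4 was 1 without Instigator 4 (Mcm2), 1 without Non-instigator 4 and 2 without Non-instigator 5, beside 2.06%, 1.31% and 1.27% of all genes higher. It was 13 without Non-instigator 1, beside 3.82%, and 7 with Instigator 5 moved to the Non-instigator group, beside 4.28%. With that array moved, Cdc6, Mcm10, Pold1, Rfc4 and Lig1 came under an unadjusted p of 0.05, with differences of 0.47, 0.58, 0.49, 0.49 and 0.24, Mcm2 and Fen1 remained, and Pole (0.32) and Cdt1 (0.38) no longer were.

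Between Non-instigator and Matrigel, 1 of the 42 genes was higher at an unadjusted p under 0.05 (Pole), beside 0.791% of all genes, and 0 were lower, beside 1.17%. With limma, 0 probe sets of the array had an adjusted p under 0.05, while 477 had an unadjusted p under 0.05. Of the 42 genes, 17 lay above 0 and 25 below, beside 4746 and 7645 of all 12393 genes. The median was -0.03, beside -0.04 over all genes, and 0.03 when arrays were centred on their medians. The count of 1 was 3 without Non-instigator 1, all lower, beside 1.27% of all genes lower. Without Matrigel 1 it was 3, all higher, beside 1.34% of all genes higher. It was 0 without Non-instigator 3, Matrigel 3 or Matrigel 4, beside 0.637%, 0.484% and 1.09% of all genes higher. Without Non-instigator 2 or Matrigel 2 it was 1, a lower gene, beside 1.05% and 2.47% of all genes lower. Pole no longer had an unadjusted p under 0.05 when Non-instigator 1, 2 or 3 or Matrigel 2, 3 or 4 was left out. Cdt1 and Rrm1 differed by 0.26 and 0.24, with 95% intervals of -0.12 to 0.65 and -0.09 to 0.57. All 3 comparisons share arrays, so their values are not independent of each other.

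The genes had a wider spread among arrays of a group than all genes had. The median SD within Instigator was 0.23 for the 42 genes, beside 0.17 for all genes, within Non-instigator 0.24 beside 0.13, and within Matrigel 0.23 beside 0.19. Within Non-instigator, 1 array was high for most of the list. Non-instigator 1 was the highest array of its group for 33 of the 42 genes (78.6%, beside 24.0% of all genes) and the lowest for 0, and Non-instigator 4 and 5 were the lowest for 22 and 13 (52.4% and 31.0%, beside 21.5% and 20.1%). Matrigel 2 was the lowest of its group for 28 (66.7%, beside 24.7%), and Instigator 5 was the highest of its group for 0 and the lowest for 14 (33.3%, beside 19.8% of all genes highest and 16.0% lowest).

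**Figure D3:**
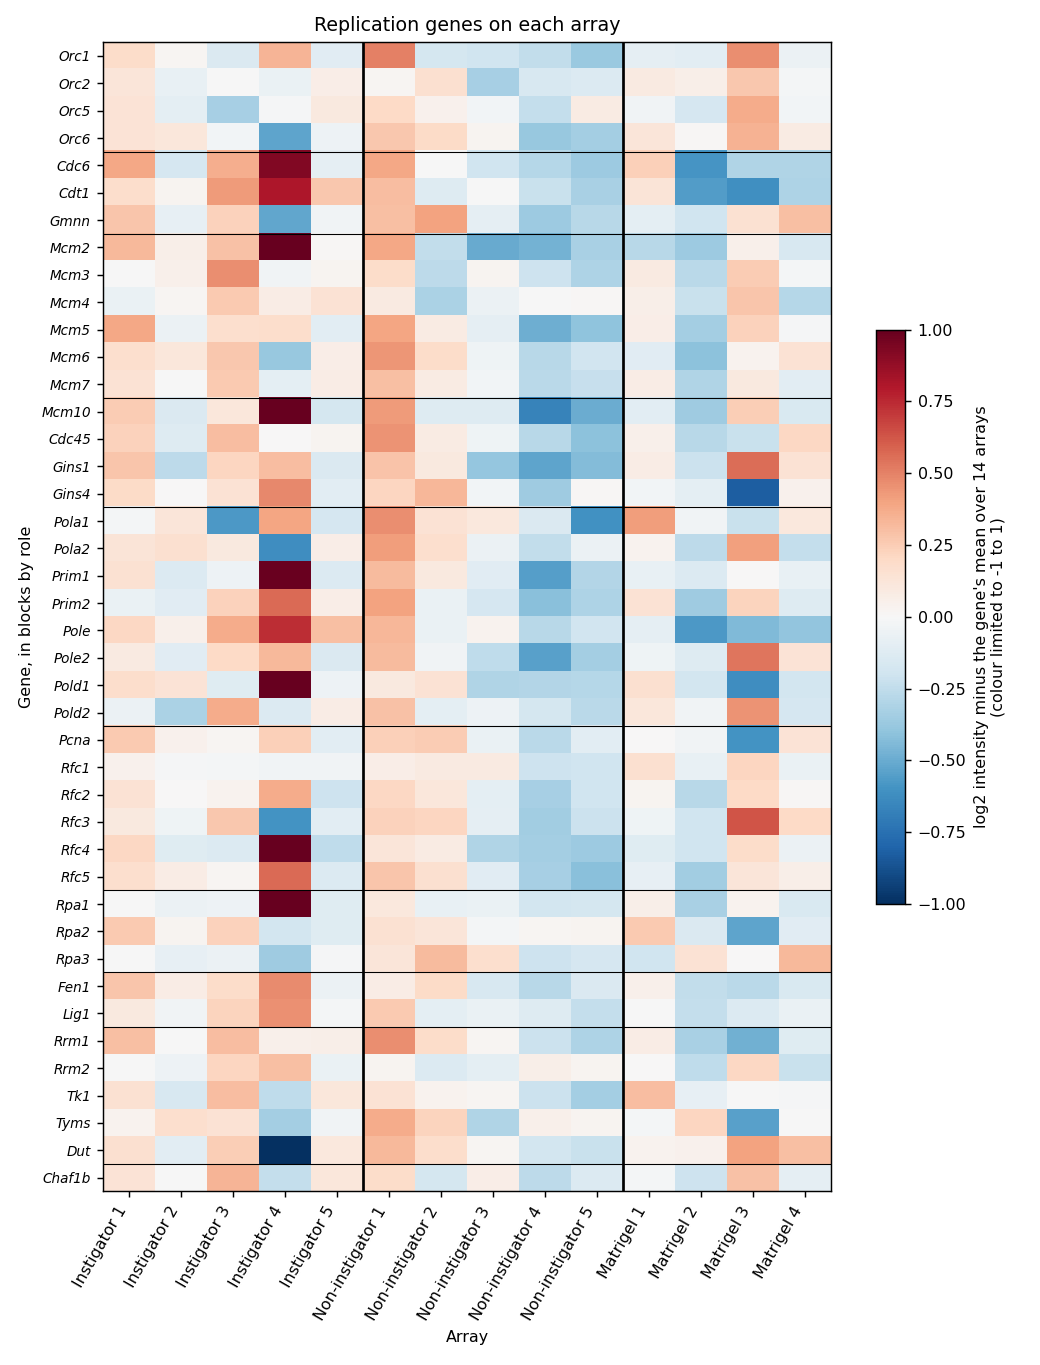
Log2 intensity of each of 42 replication genes minus its mean over 14 arrays (colour, limited to -1 to 1), with genes in rows by role and the Instigator, Non-instigator and Matrigel arrays in columns. The column of Non-instigator 1 is red for nearly all genes, those of Non-instigator 4 and 5 and of Matrigel 2 are mostly blue, and that of Instigator 4 holds the strongest colours of both signs.

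Markers of other cell types differed along the Non-instigator arrays. The mean of the replication genes was 9.75, 9.54, 9.39, 9.21 and 9.24 on Non-instigator 1 to 5. Over the same arrays the mean of 6 measured B lineage markers of 7 listed was 8.10, 8.73, 8.79, 8.91 and 9.52, lowest on Non-instigator 1 and highest on Non-instigator 5. The mean of 6 T cell markers of 7 was 7.88, 8.40, 8.45, 9.27 and 9.11, and that of 5 plasma cell markers of 5 was 8.43, 9.22, 9.66, 9.60 and 9.82. The mean of 7 granulocyte precursor markers of 8 ran the other way, at 12.67, 12.40, 12.46, 12.32 and 11.94. Instigator 4 did not have this pattern, with the highest replication gene mean of its group, 9.70, beside the lowest granulocyte precursor mean, 12.32, and a B lineage mean of 8.73, below only that of Instigator 2. On Instigator 1, 2, 3 and 5 the replication gene means were 9.63, 9.46, 9.62 and 9.46. Their granulocyte precursor means were 12.62, 12.42, 12.67 and 12.465, and their B lineage means 8.61, 9.03, 7.72 and 8.63. On Matrigel 1 to 4 the replication gene means were 9.52, 9.28, 9.52 and 9.45. Their granulocyte precursor means were 12.44, 12.24, 12.26 and 12.45, and their B lineage means 9.02, 9.25, 9.17 and 8.65.

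Between groups, the B lineage, plasma cell and granulocyte precursor means overlapped. The B lineage mean ran from 7.72 to 9.03 on Instigator arrays, from 8.10 to 9.52 on Non-instigator arrays and from 8.65 to 9.25 on Matrigel arrays. The plasma cell mean ran from 8.50 to 9.40, from 8.43 to 9.82 and from 9.18 to 9.56 on the same groups, and the mean of 5 dendritic cell markers of 6 from 8.77 to 9.64, from 8.81 to 9.92 and from 9.64 to 10.21. The dendritic cell mean of every Instigator array lay below that of every Matrigel array, but narrowly (9.6359 on Instigator 2, 9.6429 on Matrigel 4). The granulocyte precursor mean ran from 12.32 to 12.67, from 11.94 to 12.67 and from 12.24 to 12.45. The part of cell makeup in the replication gene values was not tested. In sorted but mixed cells, fewer cells of a type and less RNA per cell cannot be told apart.

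**Figure D4:**
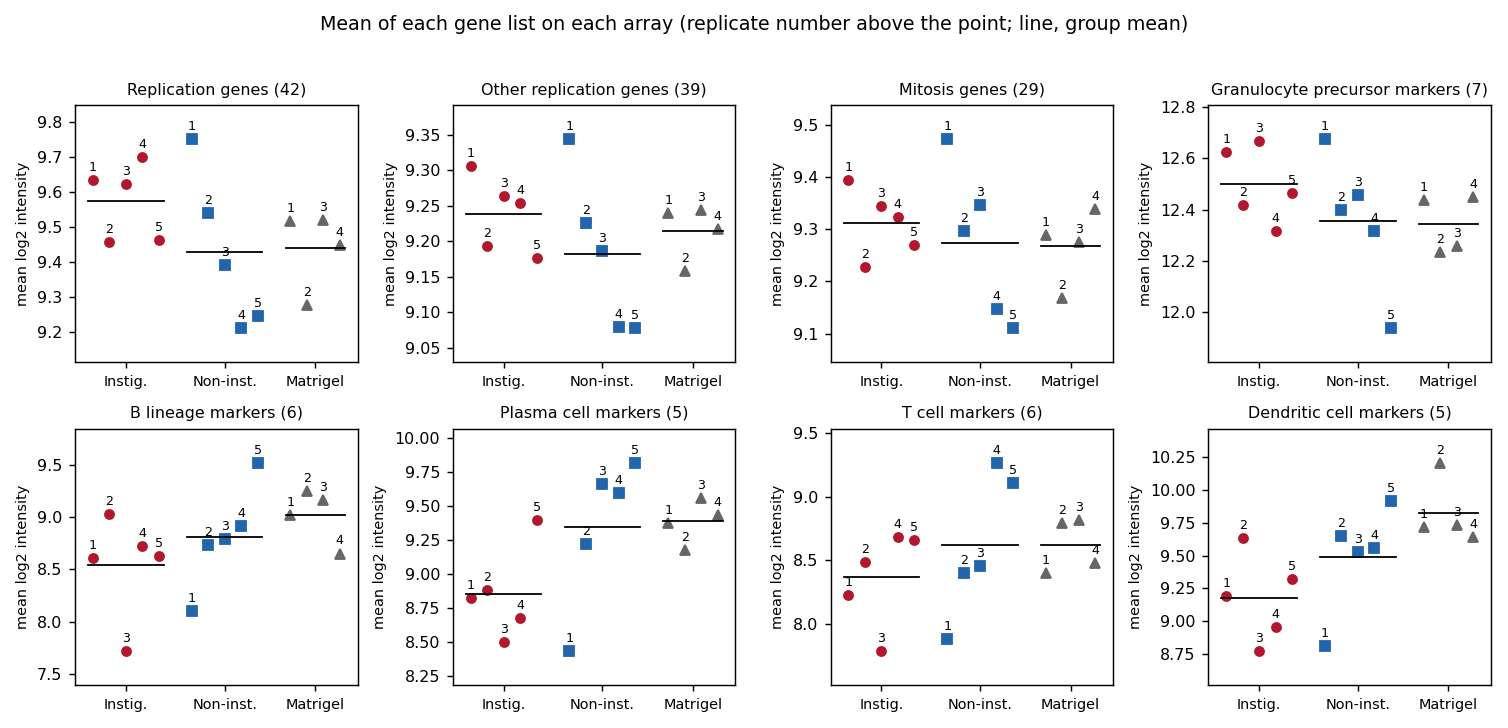
Mean log2 intensity (vertical axis, a different range in each panel) of 8 gene lists on each Instigator, Non-instigator and Matrigel array, with the number of genes in brackets, replicate numbers above the points and lines at group means. Non-instigator 1 is the highest of its group for the replication, mitosis and granulocyte precursor lists and the lowest for the B lineage, plasma cell, T cell and dendritic cell lists.

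On Instigator 4, the array with the large 5' minus 3' differences for beta-actin and Gapdh, probe sets of the same gene gave different readings. Relative to the mean of the other 4 Instigator arrays, 16 of the 74 probe sets were over 0.5 higher on the log2 scale and 19 over 0.5 lower, with a range of -1.83 to 1.38, and 25.2% of all probe sets of the array were beyond 0.5. Within the 22 genes with more than 1 probe set, the median range between them was 0.82 on Instigator 4 and 0.25 to 0.26 on the other Instigator arrays. Instigator 4 was the highest array of its group for 20 of the 42 genes and the lowest for 13, beside 31.9% and 34.7% of all genes. The part of RNA quality, or of the cells with the macrophage markers, in these values was not tested.

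**Figure D5:**
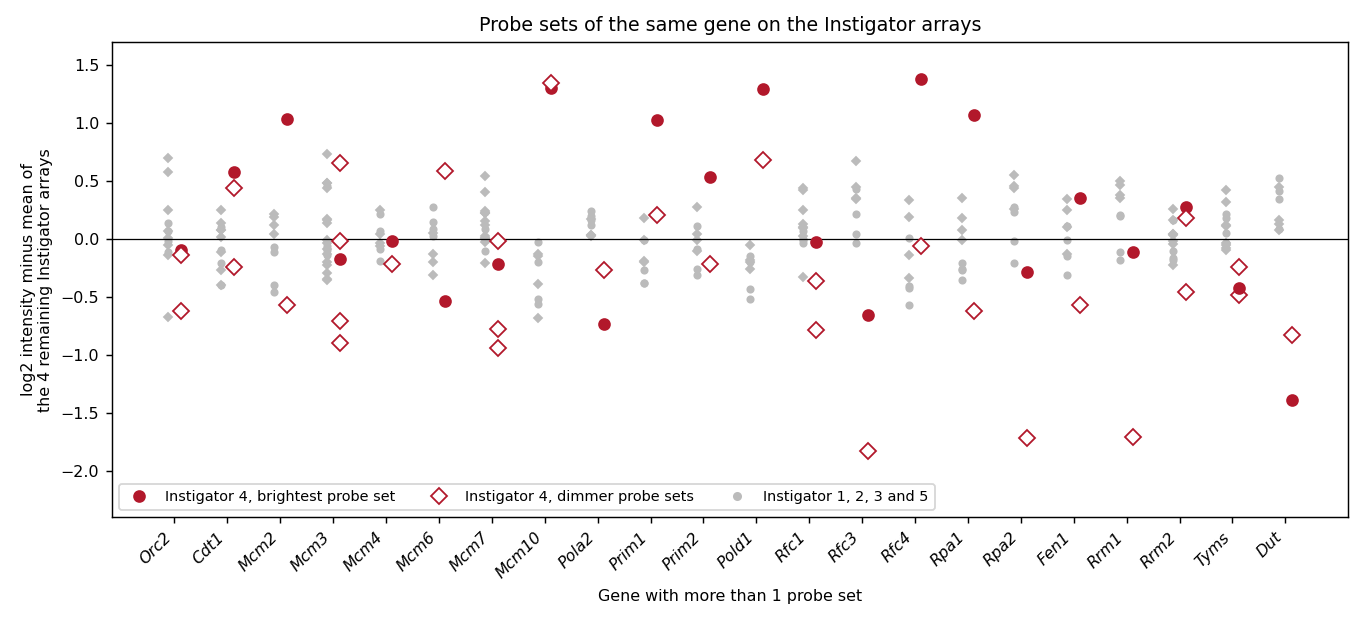
Log2 intensity minus the mean of the remaining Instigator arrays (vertical axis) for every probe set of 22 replication genes with more than 1 probe set, with Instigator 4 in red (filled for the brightest set, open for dimmer sets) and the other Instigator arrays in grey. The red points range from -1.83 to 1.38 and those of 1 gene often lie on opposite sides of 0, as for Mcm2 and Rpa1, while the grey points stay nearer 0.

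Over all 74 probe sets, 9 were higher in Instigator than in Matrigel at an unadjusted p under 0.05, beside 3.27% of all probe sets, and 3 were lower, beside 7.0%. Of the 22 genes with more than 1 probe set, 17 had probe sets of 1 sign in that comparison and 5 of mixed sign. Between Instigator and Non-instigator, 15 had 1 sign and 7 were mixed, with 6 probe sets higher and 2 lower, beside 2.24% and 3.36%.

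Other genes of replication are given for comparison. Of 49 listed genes, 39 were measured. In Instigator against Matrigel, 18 lay above 0 and 21 below, with a median of -0.03. At an unadjusted p under 0.05, 2 were higher and 3 lower (5.13% and 7.69%, beside 3.63% and 5.16% of all genes). Dnmt1, which copies DNA methylation behind the fork, averaged 11.93 ± 0.17 on Instigator arrays and 11.45 ± 0.18 on Matrigel arrays (SD, n = 5 and 4), a difference of 0.49 (SE 0.11, limma adjusted p = 0.439). Asf1b, a histone chaperone, was 0.56 higher in Instigator than in Matrigel. Top1, which relieves the twist ahead of the fork, differed by -0.36, and Mcm9, a relative of the MCM genes that acts in repair, by -0.45.

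Against Non-instigator, 24 genes of the same list lay above 0 and 15 below, with a median of 0.04. At an unadjusted p under 0.05 it had 2 genes higher in Instigator (Dnmt1 by 0.39 and Dna2, a nuclease and helicase, by 0.38) and 2 lower (Mcm9 and Top1, with differences of -0.50 and -0.30), beside 2.41% and 2.92% of all genes. Between Non-instigator and Matrigel 14 lay above 0 and 25 below, and 0 had an unadjusted p under 0.05. Of 30 mitosis genes, 29 were measured. In Instigator against Matrigel, 2 were higher at an unadjusted p under 0.05 (Racgap1 and Aurkb, which act in cell division, both by 0.45) and 1 was lower (Cenpe, a kinetochore motor, with a difference of -0.77, and -0.43 without Instigator 4), with a median of 0.05, 16 above 0 and 13 below, and the shares were 6.9% higher and 3.45% lower, beside 3.63% and 5.16% of all genes. In the other comparisons 0 mitosis genes had an unadjusted p under 0.05, and the medians were 0.08 for Instigator against Non-instigator and 0.00 for Non-instigator against Matrigel. Non-instigator 1 was also the highest of its group for 17 of 29 mitosis genes (58.6%) and for 25 of 39 other replication genes (64.1%).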

How the data were processed

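RNA of sorted bone marrow cells was measured on 14 Affymetrix mouse arrays. Per the labels' protocols, Qiagen kits were used to extract total RNA, and biotin labelling followed the NuGen Ovation system. The deposited values are intensity on a linear scale for 22690 probe sets. RMA, affy and R 2.11.0 are the tools that the submitters' processing notes name for making the deposited intensity, with options not given here. Median intensity per array ran from 119 to 145, and the number of arrays limits the precision.

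The deposited intensity was put on the log2 scale with no further normalization, and 64 control probe sets were not tested. Names came from the platform annotation, in which 20380 probe sets have 1 symbol, 691 several and 1555 none, and those with several were left unnamed. Of 12393 genes, 12377 were found in the mouse reference table. All 14 arrays entered 1 fit in limma 3.58.1 under R 4.3.3 (lmFit, contrasts.fit, eBayes), with group as the factor. P-values are two-sided and adjusted by Benjamini-Hochberg over 22626 probe sets. The fit was tested on simulated data with independent normal noise at each probe set, so the test does not cover an array such as Instigator 4. It was required to recover only differences larger than any given here. Plots come from matplotlib 3.10.9 and Python 3.11.15.

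The members and all lists were chosen with earlier results of these data known, so lists are described by counts and medians and not tested. Values on every array are given for Pole, Cdt1 and Mcm2 and for the 6 members with the smallest p in each comparison, 11 genes in all, and the other lists name their 4 genes with the smallest p, of which those past an unadjusted p of 0.05 are printed. Arrays with the same replicate number in the titles did not all deviate together (correlations of their deviations from the group means were 0.121 to 0.166 for number 1, -0.201 to 0.269 for number 2, -0.062 to 0.059 for number 3, -0.129 to -0.053 for number 4 and 0.247 for the 1 pair of number 5), so the number was used as a block in an alternative alone. The other alternatives were the compared groups alone, array weights, quantile normalization, brighter probe sets alone, robust estimation with an intensity trend, median centring, each array left out, Instigator 4 and Matrigel 3 left out together, Instigator 5 moved, and all probe sets of a gene averaged.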

Additional observations from a re-analysis of the deposited data

Results flagged for a closer look

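On Instigator 4, Mcm2 had a log2 intensity of 10.68, and the 4 other Instigator arrays lay between 9.49 and 9.79. On the same array Mcm10 had 9.58, and the 4 others lay between 8.09 and 8.52. The gap to the nearest array, divided by the range of the group, was 0.7414 for Mcm2 and 0.7106 for Mcm10. In both cases this ratio was larger than Dixon's 95% critical value for a group of 5. Of 36 groups of values examined, 2 had such an array, where chance gives about 1 in 20, or 1.8. Both were on Instigator 4, so the groups are not independent draws, and that chance count does not decide whether the array is unusual. The groups did not cover every gene of the list. Among genes outside them, Rpa1 had 11.68 on Instigator 4 and 10.54 to 10.65 on the 4 others. Dut had 9.40 on Instigator 4 and 10.58 to 10.93 on the 4 others. For Orc2, Instigator 4 lay among the other Instigator arrays. Instigator 4 is the array with the 5' minus 3' difference of -3.41 for beta-actin, and the part of RNA quality in these values was not tested.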

How the results depend on the processing

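None of the 11 genes given on every array had an adjusted p under 0.05 under any alternative run with limma, so what is said of single genes rests on unadjusted p-values and on the order of 14 arrays. The number of probe sets of the whole array called in Instigator against Matrigel was 1 without Instigator 4 and Matrigel 3 together and 0 to 1 with single arrays left out, a probe set of Scd2, which is no replication gene. The count of replication genes at an unadjusted p under 0.05 in that comparison was 13 with array weights and 4 without Instigator 4 and Matrigel 3, beside 5.39% and 3.72% of all genes higher. With single arrays left out it was 3 to 9, all higher, beside 3.09% to 4.4%. In Instigator against Non-instigator the count was 1 without Instigator 4 and Matrigel 3 and 7 with Instigator 5 moved, beside 4.33% and 4.28% of all genes higher. With single arrays left out it was 1 to 13, all higher, beside 1.27% to 4.03%. In Non-instigator against Matrigel it was 2 with array weights (1 higher and 1 lower, beside 1.78% and 1.57% of all genes). It was 2 with the replicate block, both higher, beside 0.863%. With single arrays left out it was 0 to 3, beside 0.484% to 1.38% of all genes higher and 0.29% to 4.11% lower.

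With the replicate block, the counts in Instigator against Matrigel and in Instigator against Non-instigator were 8 and 4, beside 4.27% and 2.32% of all genes higher. Averaging all probe sets of a gene gave 4 genes higher and 2 lower in Instigator against Matrigel, beside 3.11% and 6.68% of all genes. Of 330 differences of the 11 genes under alternatives other than single arrays left out, 13 changed sign and 0 passed the adjusted threshold. In Instigator against Matrigel, Gins1 was 0.013 and Pole2 0.021 with centring, 0.045 and 0.020 with array weights, and 0.019 and 0.018 without Instigator 4 and Matrigel 3, and Rrm1 was -0.076 with the mean of its probe sets. In Non-instigator against Matrigel, Mcm2 was 0.010 with centring, 0.011 with the replicate block and 0.034 without those arrays, and Mcm10 was 0.0074 without them. In Instigator against Non-instigator, Rrm1 and Orc2 were -0.13 and -0.16 with the mean of their probe sets. With single arrays left out, 9 of 462 differences changed sign. Gins1 ran from -0.18 to 0.076 and Pole2 from -0.14 to 0.082 in Instigator against Matrigel, and Mcm2 from -0.20 to 0.034, Mcm10 from -0.26 to 0.012 and Lig1 from -0.023 to 0.10 in Non-instigator against Matrigel. The cause of these changes was not tested.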
